A study of Mus musculus with 10 samples.

Results

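The genes described here are 34 members of the hypoxia-inducible factor (HIF) pathway and its targets: 9 genes of the machinery that senses oxygen and switches genes on, and 25 genes that this machinery is known to activate. They were taken from the count table by gene symbol. All 34 were found among its 24470 entries, and all 34 were among the 13941 genes with enough counts to be tested. RNA was measured in testes of C57BL/6 mouse embryos at E12.5, kept as organ cultures for 48 h with the mesonephros attached. From each of 5 embryos, called mice M1 to M5, 1 gonad received 75 µM GPI, an inhibitor of the glycogen-degrading enzyme glycogen phosphorylase, and the other received the vehicle, DMSO. The labels name no mutation or transgene in either group, and the compound was given to the whole explant, so its effect was not limited to 1 cell type by design. The mesonephros was removed before RNA extraction, which left 1 library of 1 whole gonad per sample, 5 with vehicle and 5 with GPI. The libraries held 10203679 to 15590223 counts with vehicle and 11025409 to 15635322 with GPI.

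HIF is a pair of proteins, an alpha subunit and its partner ARNT, that binds DNA near genes for glycolysis, mitochondrial adaptation, vessel growth and matrix folding. In the presence of oxygen, EGLN enzymes hydroxylate the alpha subunit, VHL then marks it for breakdown, and HIF1AN blocks its activity. The pathway is therefore regulated mainly at the protein level, and RNA of a HIF gene does not measure the amount or activity of its protein. Several targets, Egln1 and Egln3 among them, encode parts of the machinery itself. In embryos the pathway is known for its part in blood vessel formation and in the survival of cells at low oxygen.

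Levels are given as CPM, the usual unit of counts scaled to libraries of equal size, with library sizes adjusted by the trimmed mean of M values (TMM). Fold changes are log2 values of GPI over vehicle, fitted in pairs by mouse (the replicate block). A gene was called at a p under 0.05 in edgeR's quasi-likelihood test after Benjamini-Hochberg adjustment. In the GPI libraries 1 sample stood apart. The GPI-treated testis of mouse M1 had the highest level of the 5 GPI libraries for 25 of 25 targets and for 4 of 9 machinery genes, a count made after the values were seen. Over all tested genes the same library was the highest of the 5 for 24.7%. The vehicle testis of M1 was the highest of its group for 13 of the 25 targets, against 20.4% of all tested genes. The results are therefore given with all 5 mice and, for members whose GPI level in M1 lies far from the others, also without mouse M1. Mouse M1 was set aside because of its values in these same data. Calls and p-values without it describe the remaining pairs and are not separate support for a decrease.

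Many hypoxia targets were lower in GPI-treated testes, and the machinery moved in both directions. Of the 25 targets, 14 were called lower and 1 was called higher, while 11.9% of all tested genes were called lower and 11.1% higher. Of the 9 machinery genes, 3 were called lower (Epas1, Hif3a and Egln3) and 1 higher (Hif1a). Together 19 of the 34 members were called in either direction, against 22.9% of the tested genes. The median log2 fold change was -0.53 over the targets, 0.03 over the machinery and 0.02 over all tested genes. Without mouse M1, 15 targets and 4 machinery genes were called lower where 12.1% of tested genes were, and 1 target and 1 machinery gene were called higher where 10% were. The median of the targets was then -0.71. With another mouse left out, fewer targets were called lower: 10 without M2 (11.3% of all tested genes), and 11 without M3 (9.63%), without M4 (9.23%) or without M5 (10.6%). DESeq2 called 11 targets lower (12.3% of all tested genes) and limma-voom 13 (12.1%). The fit with no replicate block called 5 targets lower, while the share of all tested genes was 11.5%.

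**Figure D1:**
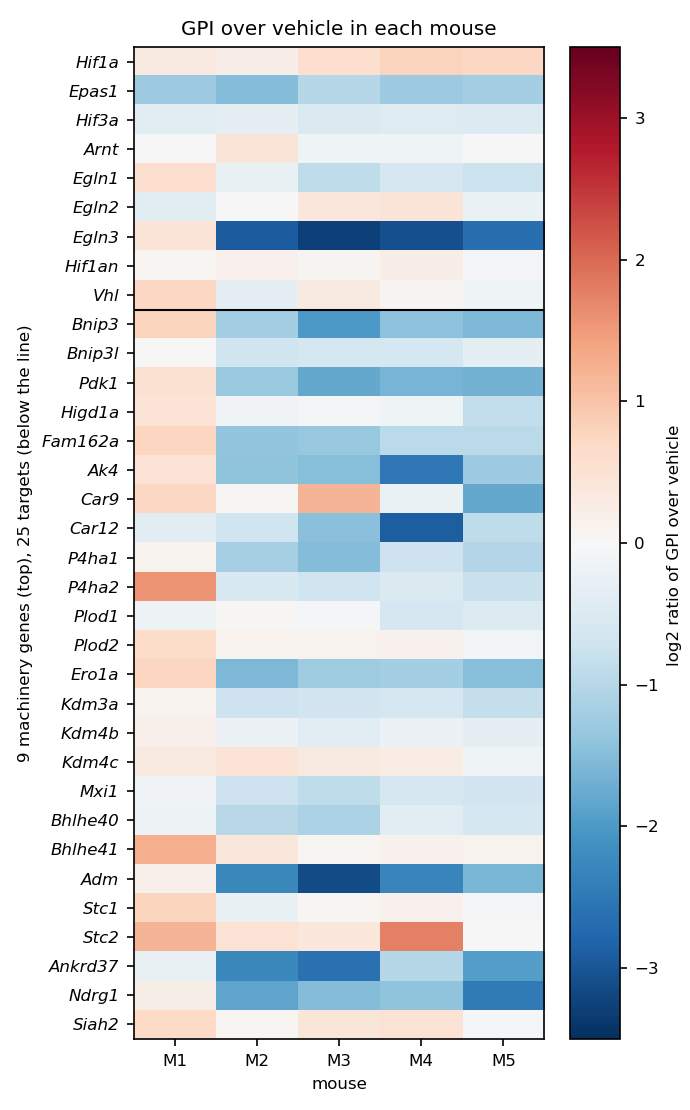
Log2 ratio of GPI over vehicle in each mouse (columns, M1 to M5) for the 34 genes (one line per gene, the 9 machinery genes above the black line and the 25 targets below it), blue for lower and red for higher with GPI. The columns of M2 to M5 are mostly blue below the line, with 18 to 23 of 25 targets lower, and in the column of M1 5 of 25 are lower.

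The split between mice was clear in the ratios of single pairs. In mouse M1, 5 of 25 targets were lower with GPI and the median log2 ratio was 0.47. In mouse M2, 18 of 25 targets were lower (median -0.70), and in mouse M3 also 18 (median -0.71). In mouse M4 the count was 19 (median -0.59), and in mouse M5 it was 23 (median -0.84). Over all tested genes each of the 5 mice had a median ratio of 0.01 or 0.02, with 47.6% to 49.4% of genes lower. The scaling factors of the M1 libraries, 1.003 with vehicle and 0.9998 with GPI, lay within the ranges of the other 8 libraries, and their depths were 11114376 and 11025409 counts. What set the GPI testis of M1 apart was not tested.

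Whether the promoters share the core of the hypoxia response element was read from RefSeq promoters (GRCm38.p6, 250 bases before to 50 after the start). The core was searched as ACGTG and as GCGTG on both strands; ACGTG also occurs inside CACGTG, the E-box bound by other factors. Of the 34 members, 26 had a promoter; Bnip3l, Plod2, Kdm4b, Bhlhe40, Stc1, Ndrg1, Siah2 and Epas1 had no entry. With 1 promoter per gene, 21 of 26 (80.8%) held at least 1 of the cores, against 49.9% of the promoters of 18204 genes and 62.4% of those of tested genes. Their median GC content was 64.3%, against 56.3% and 61.0%. ACGTG stood in 13 (50%), against 25.4% of tested genes and 21.2% of all. GCGTG stood in 18 (69.2%), against 50.9% and 38.9%, and CACGTG in 4 (15.4%), against 10.1% and 8.19%. Among members called lower, 11 of 13 promoters held a core, and among those not called lower 10 of 13 did. The 4 promoters printed here, 5′ to 3′ on the gene's strand, belong to the members with the largest called decreases that had an entry; capitals mark the cores on either strand.
Egln3: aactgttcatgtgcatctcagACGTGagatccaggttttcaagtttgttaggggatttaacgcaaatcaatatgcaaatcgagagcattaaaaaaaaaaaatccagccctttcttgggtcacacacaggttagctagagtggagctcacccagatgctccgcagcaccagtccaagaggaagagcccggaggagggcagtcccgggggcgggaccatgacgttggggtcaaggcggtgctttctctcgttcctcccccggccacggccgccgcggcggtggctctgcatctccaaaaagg
Adm: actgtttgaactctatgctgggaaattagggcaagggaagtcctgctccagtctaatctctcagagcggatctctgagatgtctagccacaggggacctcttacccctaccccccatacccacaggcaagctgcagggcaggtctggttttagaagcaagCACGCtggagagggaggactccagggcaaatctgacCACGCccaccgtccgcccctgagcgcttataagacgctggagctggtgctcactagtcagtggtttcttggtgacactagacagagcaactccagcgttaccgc
Ankrd37: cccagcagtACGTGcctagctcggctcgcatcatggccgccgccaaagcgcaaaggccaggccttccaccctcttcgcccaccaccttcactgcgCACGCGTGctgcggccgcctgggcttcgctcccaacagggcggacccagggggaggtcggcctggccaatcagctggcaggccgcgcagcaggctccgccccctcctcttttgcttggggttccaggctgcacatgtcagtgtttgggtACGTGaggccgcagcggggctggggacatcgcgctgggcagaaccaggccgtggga
Car12: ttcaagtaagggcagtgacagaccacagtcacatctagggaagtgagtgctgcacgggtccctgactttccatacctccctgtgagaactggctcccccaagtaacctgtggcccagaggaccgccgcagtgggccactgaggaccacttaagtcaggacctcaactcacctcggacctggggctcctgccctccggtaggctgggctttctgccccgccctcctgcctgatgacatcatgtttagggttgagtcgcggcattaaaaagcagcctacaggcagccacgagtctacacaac
The Egln3 promoter lies at chr12:54203825-54204124 on the minus strand and holds 1 core, which begins 229 bases before the start. The Adm promoter, at chr7:110627407-110627706 on the plus strand, holds 2 cores, both as GCGTG on the other strand, 90 and 54 bases before the start. The Ankrd37 promoter, at chr8:45999801-46000100 on the minus strand, holds 4, of which 1 begins 6 bases before the start and 2 overlap. The Car12 promoter, at chr9:66713436-66713735 on the plus strand, holds 0 in this window. A match is a stretch of letters and not a binding site, and binding was not measured.

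Hif1a (Entrez 15251, mm10 chr12:73901324-73947554), the alpha subunit present in most cells, was measured at 275, 352, 281, 271 and 263 CPM in the vehicle testes of mice M1 to M5. With GPI it stood at 341, 411, 427, 467 and 435 CPM. Every testis had more Hif1a RNA with GPI than its partner with vehicle, and the groups overlapped through the GPI value of M1 and the vehicle value of M2. Hif1a rose by 0.53 ± 0.09 on the log2 scale (SE; edgeR's quasi-likelihood test, Benjamini-Hochberg adjusted p = 0.000529), and 0.57 without mouse M1.

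Epas1 (Entrez 13819, mm10 chr17:86753864-86833410), an alpha subunit known for its high level in vascular endothelium, moved the opposite way. Its levels with vehicle were 183, 329, 254, 302 and 250 CPM, and with GPI 75.9, 114, 128, 125 and 110 CPM. Every GPI value lay below every vehicle value, which held for 1 of the 34 members and for 9.05% of tested genes. It fell by 1.25 ± 0.08 (SE) on the log2 scale, with the same size in mouse M1 (-1.27) as in the others (edgeR's quasi-likelihood test, Benjamini-Hochberg adjusted p = 1.64e-07). Within a mouse the Epas1 ratio was lower than the Hif1a ratio, with differences from -1.58 to -2.06 and a mean of -1.78 ± 0.21 (SD, n = 5; exact two-sided sign-flip permutation p = 0.062, the smallest that 5 pairs can give; 0.0982 adjusted over 11 paralog pairs). In such bulk RNA, fewer cells of a type and less RNA per cell cannot be told apart. Endothelial markers fell along with Epas1: 10 of 10 were called lower, and their summed level was 812, 820, 792, 900 and 825 CPM with vehicle and 98.1, 116, 76.3, 60.6 and 70.0 CPM with GPI. Cdh5, a junction protein of vessels, was the most abundant of them with vehicle (mean 229 CPM; 18.9 with GPI), and 0 of the 10 were at zero counts in all libraries. Pecam1 changed by -4.16 and Flt1 by -5.18 on the log2 scale. The part of the endothelial cells in the Epas1 value was not tested.

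Hif3a, an alpha subunit with some forms that restrain the other factors, was lower in each pair, with 272, 224, 225, 175 and 216 CPM with vehicle and 213, 179, 159, 129 and 154 CPM with GPI. The groups overlapped, and M1 had the highest and M4 the lowest Hif3a level under both treatments. Hif3a had a log2 fold change of -0.42 ± 0.07 (SE; edgeR's quasi-likelihood test, Benjamini-Hochberg adjusted p = 0.000393). Arnt, the shared partner, was measured at 88.4 to 126 CPM with vehicle and 108 to 125 with GPI. Its log2 fold change was 0.03, with a 95% confidence interval from -0.22 to 0.28. The interval was made from the SE and the t distribution for 5 mice, and is wider than edgeR's quasi-likelihood test would give. Arnt was not called, and its fitted sign turned with total-count scaling and without mouse M2.

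**Figure D2:**
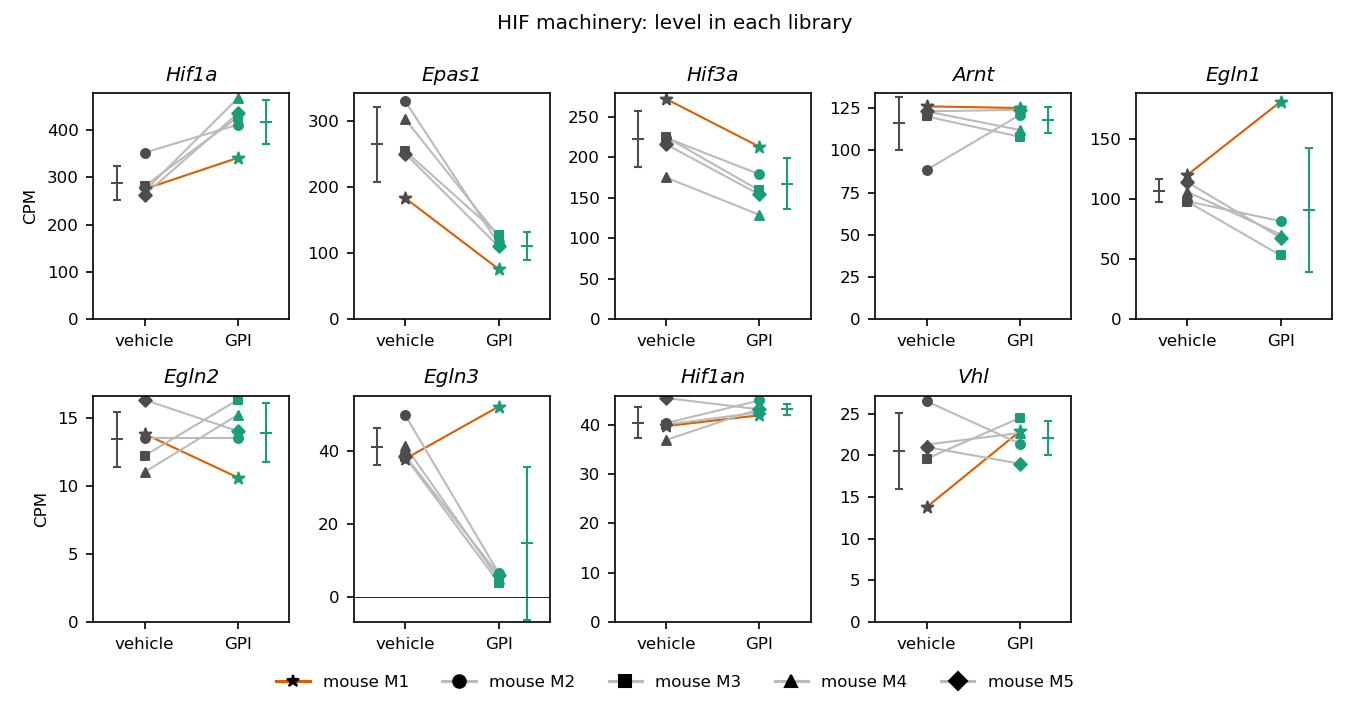
Level (CPM, linear axis) of the 9 machinery genes in each library, with lines joining the vehicle and the GPI testis of 1 mouse (orange line and stars: M1) and bars at the sides for the mean ± SD of each treatment (n = 5). Epas1 fell in all 5 pairs to 75.9 to 128 CPM; Egln3 fell to 3.86 to 6.51 CPM in M2 to M5 and stood at 52.3 CPM in M1.

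Of the 3 prolyl hydroxylases 1 was called with all 5 mice. Egln3 (Entrez 112407, mm10 chr12:54178981-54203874), an oxygen-dependent hydroxylase and itself a HIF target, was even across the vehicle testes, at 37.9, 49.9, 38.4, 41.4 and 38.7 CPM. With GPI it was 52.3 CPM in M1 and 6.51, 3.86, 4.78 and 6.01 CPM in M2 to M5. The GPI testis of M1 was above every vehicle testis, and the other 4 were far below all of them. On the log2 scale the change was -2.27 ± 0.44 (SE; edgeR's quasi-likelihood test, Benjamini-Hochberg adjusted p = 0.00181), and -3.02 ± 0.15 without mouse M1, or 12.3% of the vehicle level. Without the replicate block the change was -1.51 and was not called (edgeR's quasi-likelihood test, Benjamini-Hochberg adjusted p = 0.0617).

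Egln1, the main hydroxylase of HIF alpha in most tissues, also had its highest GPI level in M1. It was 120, 98.1, 97.9, 106 and 114 CPM with vehicle, and 181, 81.6, 53.1, 70.5 and 67.8 CPM with GPI. It was not called with all 5 mice (log2 fold change -0.38 ± 0.16, SE), and was called at -0.64 ± 0.10 without mouse M1 (edgeR's quasi-likelihood test, Benjamini-Hochberg adjusted p = 0.000388). With no low-count filter, Egln1 passed as well (adjusted p = 0.0301, edgeR's quasi-likelihood test, Benjamini-Hochberg). Egln2, the third hydroxylase, ranged from 11 to 16.3 CPM with vehicle and from 10.6 to 16.3 with GPI, was not called, and had a fitted sign that turned without M3 or without M4. The Egln3 ratio was below the Egln1 ratio in 5 of 5 mice, by a mean of -1.91 ± 1.03 (SD, n = 5; exact sign-flip permutation p = 0.062, adjusted 0.0982; 95% interval of the t distribution -3.19 to -0.63), and by -0.13 in M1 alone. For Egln3 and Egln2 the mean difference was -2.34 ± 1.85 (SD, n = 5; exact sign-flip permutation p = 0.125, adjusted 0.172; 95% interval of the t distribution -4.63 to -0.05), with 0.84 in M1. For Egln1 and Egln2 it was -0.43 ± 0.88 (SD, n = 5; adjusted exact sign-flip permutation p = 0.312), with 0.97 in M1. With 5 pairs no adjusted p of this test can pass 0.05, whatever the difference. Hif1an, the asparagine hydroxylase, stood at 36.9 to 45.4 CPM with vehicle and 41.9 to 44.9 with GPI, the narrowest GPI range of the 34 genes for its level (coefficient of variation 2.65%). Vhl, the substrate arm of the ubiquitin ligase, was 13.8 to 26.5 CPM with vehicle and 19 to 24.5 with GPI. Neither was called.

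Among the targets, 5 of the 6 mitochondrial genes were called lower, and all 6 had ratios below zero in each of M2 to M5. Bnip3 (Entrez 12176), a receptor for the removal of mitochondria, was 93.9, 80.3, 62.9, 60.2 and 72.2 CPM with vehicle. With GPI it was 160, 34.9, 15.5, 22.1 and 24.2 CPM. The GPI testis of M1 held the highest and the other 4 GPI testes the 4 lowest values of the 10. The log2 fold change was -1.08 ± 0.29 (SE; edgeR's quasi-likelihood test, Benjamini-Hochberg adjusted p = 0.0153), and -1.57 ± 0.13 without M1. This call was lost when M2, M3, M4 or M5 was left out (adjusted p from 0.0648 to 0.0734, edgeR's quasi-likelihood test, Benjamini-Hochberg), with no replicate block (0.487), and with DESeq2 (0.0514). The log2 fold change of Bnip3 was -0.53 with no replicate block and -1.14 with DESeq2. Bnip3l, its paralog, was at 217, 227, 197, 208 and 178 CPM with vehicle against 217, 140, 129, 136 and 142 with GPI. The M1 value was the same under both treatments, and the other 4 GPI values lay below all vehicle values. Bnip3l fell by 0.45 ± 0.10 (SE) on the log2 scale (edgeR's quasi-likelihood test, Benjamini-Hochberg adjusted p = 0.00363), and by 0.58 without M1.

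Pdk1 (Entrez 228026), the kinase that holds pyruvate back from the mitochondria, was 87.1, 67.0, 59.4, 61.0 and 78.5 CPM with vehicle and 125, 27.4, 17, 19.6 and 24.7 CPM with GPI. It showed the order seen for Bnip3, with M1 on top and the other GPI testes below the whole vehicle group. The log2 fold change was -1.17 ± 0.26 (SE), and -1.61 ± 0.11 without M1, or 32.7% of vehicle (edgeR's quasi-likelihood test, Benjamini-Hochberg adjusted p = 0.0053 and 1.49e-07). Ak4, a mitochondrial adenylate kinase, was 36.5, 37.9, 25.1, 29.3 and 28.3 CPM with vehicle and 51.7, 14.3, 8.80, 5.04 and 11.8 with GPI. Its log2 fold change was -1.19 ± 0.30 (SE; edgeR's quasi-likelihood test, Benjamini-Hochberg adjusted p = 0.0102), lost without M2 (0.054), and -1.66 without M1. Fam162a, a mitochondrial protein induced by hypoxia, was 59.7, 58.7, 45.2, 39.9 and 50.9 CPM with vehicle and 100, 22.4, 18, 20.7 and 26.2 CPM with GPI. In both genes M1 was the one GPI testis above the vehicle range. For Fam162a the log2 fold change of -0.77 ± 0.24 (SE; edgeR's quasi-likelihood test, Benjamini-Hochberg adjusted p = 0.0341) became -1.17 ± 0.12 without M1, and the call was lost without M2, M3, M4 or M5 (0.105 to 0.155). DESeq2 (0.114) and limma-voom (0.0785), each with Benjamini-Hochberg adjusted p, did not call Fam162a. Without the replicate block Pdk1, Ak4 and Fam162a were not called (0.257, 0.222 and 0.454, edgeR's quasi-likelihood test, Benjamini-Hochberg adjusted p). Their log2 fold changes were then -0.73, -0.79 and -0.45. Higd1a, a protein of the respiratory chain complexes, ranged from 28.8 to 41.8 CPM with vehicle and 22.6 to 58.0 with GPI, and was not called.

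**Figure D3:**
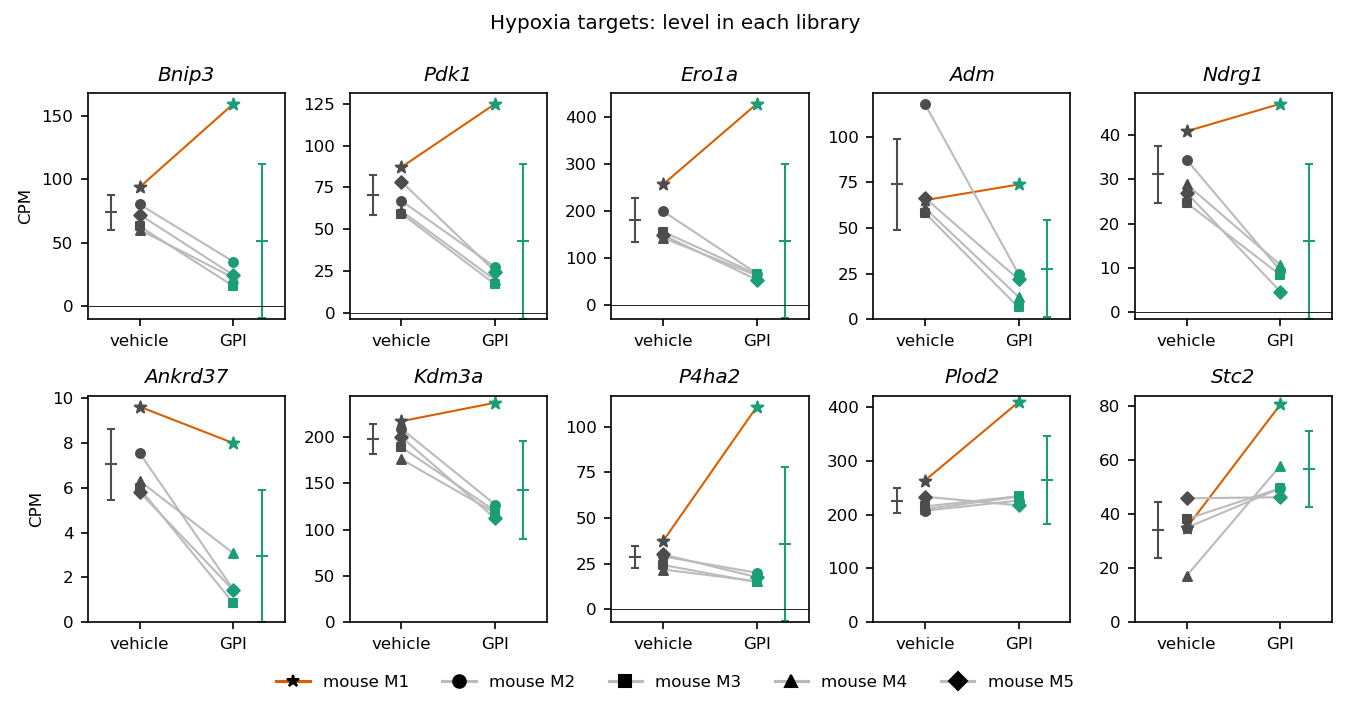
Level (CPM, linear axis) of 10 targets in each library, with lines joining the vehicle and the GPI testis of 1 mouse (orange line and stars: M1) and bars at the sides for the mean ± SD of each treatment (n = 5). For Bnip3 the GPI testes of M2 to M5 lie at 15.5 to 34.9 CPM, below all vehicle testes, and that of M1 lies at 160 CPM, above them.

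Of the 5 genes of collagen maturation and protein folding, P4ha1 and Ero1a were called. Ero1a (Entrez 50527), the oxidase that makes disulfide bonds in the endoplasmic reticulum, was 257, 200, 156, 143 and 149 CPM with vehicle. With GPI it was 429 CPM in M1 and 66.8, 65.5, 62.6 and 53.5 CPM in M2 to M5. The 4 low values lay within a narrow band, with a coefficient of variation of 9.65% without M1 and 121% with it. The log2 fold change was -0.97 ± 0.26 (SE; edgeR's quasi-likelihood test, Benjamini-Hochberg adjusted p = 0.014), and -1.39 ± 0.09 without M1. The Ero1a call was lost without M2, M3, M4 or M5 (adjusted p from 0.0567 to 0.0832, edgeR's quasi-likelihood test, Benjamini-Hochberg), with no replicate block (0.597) and with DESeq2 (0.0511). The log2 fold change of Ero1a was -0.42 with no replicate block and -0.99 with DESeq2.

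P4ha1, a catalytic subunit of collagen prolyl hydroxylase, was 98.6, 95.1, 70.5, 63.6 and 70.7 CPM with vehicle and 106, 42.4, 24.6, 38.3 and 34.8 CPM with GPI. Its log2 fold change was -0.86 ± 0.17 (SE; edgeR's quasi-likelihood test, Benjamini-Hochberg adjusted p = 0.00246), and -1.12 without M1; without the replicate block it was not called (0.104). P4ha2, the paralogous subunit, was 37.3, 28.9, 24.2, 21.7 and 30.0 CPM with vehicle and 111, 19.9, 14.7, 15.3 and 17.5 CPM with GPI. In M1 it had the largest ratio of that mouse among the 34 genes (1.57 on the log2 scale), while in the other 4 every GPI value was below every vehicle value. With all 5 mice P4ha2 was not called (-0.18 ± 0.27, SE), and without M1 it was (-0.65 ± 0.13, SE; edgeR's quasi-likelihood test, Benjamini-Hochberg adjusted p = 0.0015). The fitted sign of P4ha2 turned with limma-voom (0.06) and without the replicate block (0.32). The lysyl hydroxylases Plod1 (40.2 to 59.9 CPM with vehicle, 28.8 to 53.4 with GPI) and Plod2 (207 to 263 and 217 to 409 CPM) were not called. For Plod2 the GPI testes of M2 to M5 lay between 217 and 234 CPM, and the 409 CPM belonged to M1; the log2 fold change was 0.19 with all mice and 0.06 without M1. Reads of Plod2 could not be separated by strand from B430319G15Rik, which overlaps it and had 1068 counts in all libraries together, against 29956 of Plod2.

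The histone demethylase Kdm3a was 217, 209, 189, 176 and 200 CPM with vehicle and 237, 127, 120, 118 and 112 CPM with GPI. Again M1 was highest and the 4 other GPI testes were below the vehicle range. It fell by 0.53 ± 0.12 (SE) on the log2 scale (edgeR's quasi-likelihood test, Benjamini-Hochberg adjusted p = 0.00404; 0.0548 without the replicate block), and by 0.71 without M1. Kdm4b and Kdm4c, related demethylases, had log2 fold changes of -0.19 and 0.24 and were not called; Kdm4c passed without M5 (0.34, adjusted p = 0.0218, edgeR's quasi-likelihood test, Benjamini-Hochberg).

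Among the repressors, Mxi1 and Bhlhe40 were lower in 5 of 5 mice. Mxi1, an antagonist of MYC, was 76.1, 84.2, 67.4, 75.8 and 73.2 CPM with vehicle and 70.7, 50.6, 36.5, 50.4 and 46.3 CPM with GPI. It overlapped with the vehicle group through M1 alone, and its log2 fold change was -0.59 ± 0.11 (SE; edgeR's quasi-likelihood test, Benjamini-Hochberg adjusted p = 0.00101). Bhlhe40, a repressor tied to the circadian clock, was 54.6, 63.0, 50.7, 48.8 and 44.8 CPM with vehicle and 47.9, 32, 23.3, 37.3 and 29.3 CPM with GPI. Its log2 fold change was -0.65 ± 0.13 (SE; edgeR's quasi-likelihood test, Benjamini-Hochberg adjusted p = 0.0021). The gene 0610040F04Rik overlaps Bhlhe40 on the other strand and had 31 counts in all, against 5228. Bhlhe41, its paralog, was higher in each pair, from 25.6 to 32.9 CPM with vehicle to 28.3 to 62.7 with GPI, and was not called (0.40 ± 0.15, SE); with no low-count filter it was (adjusted p = 0.0357, edgeR's quasi-likelihood test, Benjamini-Hochberg). Without M1, whose ratio was 1.26 against 0.08 to 0.40 in the others, its log2 fold change was 0.17, also not called. The ratio of Bhlhe40 was below that of Bhlhe41 in 5 of 5 mice, by a mean of -1.05 ± 0.41 (SD, n = 5; exact sign-flip permutation p = 0.062, adjusted 0.0982).

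The secreted targets went different ways. Adm (Entrez 11535), the precursor of the vasodilator adrenomedullin, was 65.2, 118, 58.3, 61.0 and 66.5 CPM with vehicle. With GPI it was 73.8, 24.7, 6.48, 12.2 and 21.8 CPM. In M1 it lay inside the vehicle range and in the others below it. For Adm the log2 fold change was -1.79 ± 0.33 (SE; edgeR's quasi-likelihood test, Benjamini-Hochberg adjusted p = 0.00137), and -2.31 ± 0.18 without M1. Vessels are a known source of adrenomedullin; the endothelial marker sum given beside Epas1 was low in the GPI testis of M1 as well (98.1 CPM), where Adm was not, and their part in the Adm value was not tested. Stc2, a stanniocalcin, was the one target called higher: 34.9, 34.9, 38.1, 17.1 and 45.8 CPM with vehicle against 80.5, 49.5, 49.5, 57.9 and 46.2 with GPI. Every GPI value was above every vehicle value, by 0.01 on the log2 scale within M5, and such a gap was found in 1 of 34 members and in 7.07% of tested genes. The log2 fold change was 0.76 ± 0.19 (SE; edgeR's quasi-likelihood test, Benjamini-Hochberg adjusted p = 0.0114), and DESeq2 gave a Benjamini-Hochberg adjusted p of 0.0508. Stc1 was 93.8 to 132 CPM with vehicle and 94.4 to 204 with GPI, was not called, and changed sign without M1.

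Car12, a carbonic anhydrase of the cell surface, was 14.4, 10.3, 14.7, 15.6 and 12.1 CPM with vehicle and 11.2, 6.32, 5.25, 1.96 and 6.46 CPM with GPI. It was lower in each pair and fell by 1.20 ± 0.29 (SE) on the log2 scale (edgeR's quasi-likelihood test, Benjamini-Hochberg adjusted p = 0.00728). Car9, often used as a marker of hypoxia, had 8 to 47 counts per library and levels of 0.816 to 2.84 CPM with vehicle and 0.708 to 4.27 with GPI. Its ratios ran from -1.79 in M5 to 1.20 in M3. The log2 fold change of 0.01 had a 95% confidence interval, made as for Arnt, from -1.22 to 1.24. A change in either direction was therefore not excluded. Low counts and spread between mice cannot be told apart here.

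Ndrg1, a gene of the stress response, was 40.8, 34.4, 24.7, 28.9 and 27.0 CPM with vehicle and 47.0, 9.41, 8.41, 10.7 and 4.69 CPM with GPI. Ankrd37, an ankyrin repeat gene, was 9.62, 7.55, 5.98, 6.31 and 5.81 CPM with vehicle and 7.99, 1.45, 0.849, 3.07 and 1.42 CPM with GPI. In both, the GPI testis of M1 stayed with or above the vehicle group and the other 4 were below it. Their log2 fold changes were -1.38 ± 0.28 and -1.59 ± 0.34 (SE; edgeR's quasi-likelihood test, Benjamini-Hochberg adjusted p = 0.00259 and 0.00354), and -1.84 and -2.03 without M1. Without the replicate block neither was called (0.138 and 0.0534, edgeR's quasi-likelihood test, Benjamini-Hochberg adjusted p). Ankrd37 overlaps Ufsp2 on the other strand, which had 3301 counts in all libraries against 596 of Ankrd37, so its level is uncertain. Siah2, a ubiquitin ligase that acts on EGLN proteins, had 23 to 53 counts per library and was not called (0.37 ± 0.28, SE).

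**Figure D4:**
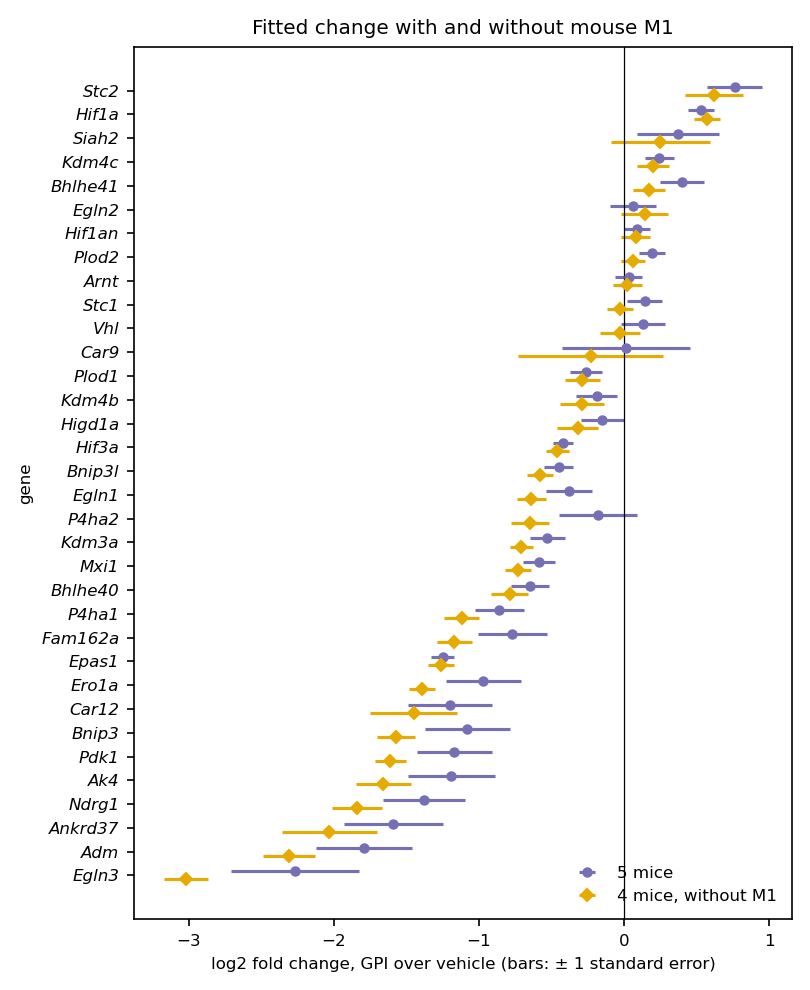
Log2 fold change of GPI over vehicle (horizontal axis) for each of the 34 genes, fitted with 5 mice (circles) and without mouse M1 (diamonds), with bars of ± 1 standard error. Egln3 moved from -2.27 to -3.02 and P4ha2 from -0.18 to -0.65, while Epas1 (-1.25 and -1.26) and Hif1a (0.53 and 0.57) stayed close.

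The spread between the GPI libraries was wide with M1 and narrow without it. For the targets this follows in part from leaving out the library that was highest for all 25. The median coefficient of variation of the 25 targets was 16.8% with vehicle and 42.5% with GPI, and 16.8% with GPI without M1. Among machinery genes it was 13.5% with vehicle, 15.4% with GPI and 8.54% with GPI without M1. In the GPI group 14 of the 34 genes exceeded 50%, up to 143% for Egln3, and 2 did without M1, Adm at 51.8% and Ankrd37 at 56.5%. In the vehicle group 0 of 34 exceeded 50%, and the highest was Car9 at 38.4%. The GPI testes of M2 to M5 lay below every vehicle testis of M2 to M5 for 16 of 25 targets and 3 of 9 machinery genes, where 12.3% of tested genes did. With M1 included, 0 of 25 targets had every GPI value below every vehicle value, against 9.05% of tested genes.

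Levels of different genes were compared per length, as CPM per kilobase of the longest GENCODE M21 transcript, for all 34 members. With vehicle, Fam162a was highest at 70.9 ± 11.9 (SD, n = 5), followed by Bnip3l at 63.0 ± 5.80, Plod2 at 61.6 ± 6.34 and Hif1a at 61.0 ± 7.65. These 4 do not differ beyond their spread, nor do Adm (53.1 ± 17.9), Epas1 (47.8 ± 10.1), Bnip3 (42.1 ± 7.81), Ero1a (41.0 ± 10.9) and Kdm3a (40.8 ± 3.34), each from its neighbour in this order. Car9 (0.994 ± 0.382) and Siah2 (0.969 ± 0.102) were lowest. Among the factors the order with vehicle was Hif1a, Epas1, Hif3a (34.7 ± 5.39) and Arnt (26.8 ± 3.61). With GPI Hif1a stood at 88.1 ± 9.89, above Arnt at 27.3 ± 1.75, Hif3a at 26.1 ± 4.90 and Epas1 at 20 ± 3.77 (SD, n = 5). Apart from Hif1a with GPI, neighbours in both orders overlap within 1 SD of their means, though Hif1a was above Epas1 in each of the 5 vehicle libraries. Of the hydroxylases Egln1 came first with vehicle (29.8 ± 2.71), then Egln3 (15.5 ± 1.88), Hif1an (6.53 ± 0.497) and Egln2 (6.34 ± 0.942); the last 2 do not differ beyond their spread. With GPI Egln1 was 25.3 ± 14.3 with all 5 mice and 19 ± 3.26 without M1. Egln3 was 5.52 ± 7.91 with all 5 and 1.99 ± 0.45 without M1.

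Other genes of the pathway gave a background to these members. Of 14 tested partners and ligase subunits (15 listed), 2 were called higher and 0 lower, against 11.1% and 11.9% of all tested genes. Their median log2 fold change was -0.03. Cited2, which competes with HIF for its coactivators, changed by 0.66 and Rnf7, a ligase subunit, by 0.43; the coactivator Crebbp (-0.19) and Arnt2 (0.32) were not called. Of 19 targets in glucose uptake and glycolysis, 11 were called lower and 2 higher, and 15 lower without M1. Their median log2 ratio was 0.47 in M1, where 0 of 19 were lower, and between -0.77 and -1.05 in M2 to M5. Slc2a1, a glucose carrier, changed by -0.91, Pfkp, a phosphofructokinase, by -1.78 and Ldha, which makes lactate, by -1.11 (-1.26, -2.31 and -1.45 without M1). Hk2, a hexokinase, went up by 0.47. Slc2a3 was not called with 5 mice (-0.37) and was called lower without M1 (-0.57). Of 6 glycogen genes 1 was called lower, against 11.9% of all tested genes. It was Ppp1r3c, which targets the synthase to glycogen (-0.55). Pgm1 (-0.59), Ugp2 (0.00) and Pygl (-0.39) were not called. Without M1, 3 were called lower: Ppp1r3c (-0.74), Pgm1 (-0.98) and Pygl (-0.57).

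Of 12 tested signal and vessel targets (15 listed), 7 were called lower and 0 higher. Vegfa, the vessel growth factor, changed by -1.02 with all mice and by -1.41 without M1, with a ratio of 0.60 in M1. By contrast Igfbp3 (-2.82), Cxcr4 (-2.67) and Nos3 (-3.15) were lower in M1 as in the others, at ratios of -2.59, -2.32 and -2.17 there. Cxcr4 and Nos3 are known from endothelial cells, whose markers fell as given above, and their part was not tested. Edn1 (0.14) was not called. Of 14 stress and clock targets, 7 were called lower and 0 higher: Ddit4 (-0.60), Ccng2 (-0.40), Rora (-0.75) and Maff (-1.44) were among those called.

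**Figure D5:**
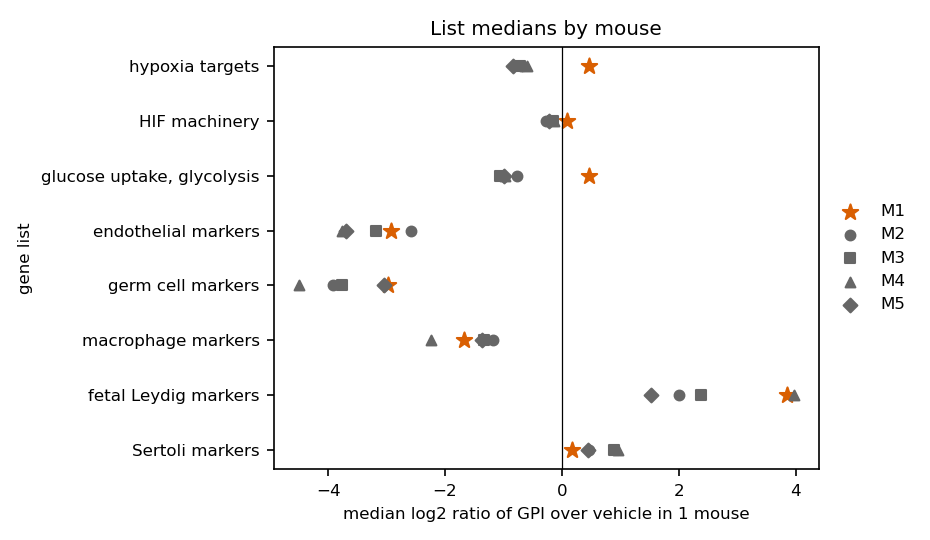
Median log2 ratio of GPI over vehicle in each mouse (horizontal axis) for 8 gene lists (vertical axis), with M1 as an orange star and the others in grey. For the hypoxia targets and the glucose genes M1 lies at 0.47, apart from the other mice below zero, while for endothelial, germ cell and macrophage markers it lies below zero with the others.

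Markers of the cell types in the explant show which cells the libraries hold. Sertoli markers were present in all 10 libraries, and 6 of 8 were called higher with GPI; their summed level was 252 to 397 CPM with vehicle and 288 to 696 with GPI, the lowest of each in M1, with Aard the most abundant. Sox9 changed by 0.59, Dhh by 0.92, Sox8 by 1.43 and Aard by 0.54, while Amh (0.08), at 10.4 CPM with vehicle, was not called. Of fetal Leydig markers 5 of 5 tested (6 listed) were called higher, with sums of 106 to 453 CPM with vehicle and 819 to 1530 with GPI and Hsd3b1 the most abundant with vehicle; Cyp17a1 changed by 3.90, Cyp11a1 by 2.90 and Hsd3b1 by 1.75. Of germ cell markers 5 of 6 tested (8 listed) were called lower, with sums of 53.4 to 168 CPM with vehicle and 3.55 to 11 with GPI and Dazl the most abundant with vehicle; Ddx4 changed by -2.72, Dazl by -4.62, Dppa3 by -5.20 and Sall4 by -4.89.

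Macrophage markers were called lower in 7 of 8, from sums of 43.8 to 68.1 CPM to 13.8 to 27.8 CPM, with Mrc1 the most abundant. Csf1r changed by -2.22, C1qa by -3.78, C1qb by -1.91 and Mrc1 by -0.90, and Adgre1 (-0.26) was not called. Erythroid markers were called lower in 5 of 7, and their sums were 141, 178, 295, 250 and 226 CPM with vehicle and 146, 76.9, 73.6, 84.1 and 192 with GPI, with Hbb-y the most abundant. Hbb-y changed by -0.98, Hba-a1 by -1.59, Alas2 by -0.75 and Slc4a1 by -4.80, and Hba-x (-0.45) was not called. Without M1, 6 of 7 erythroid markers were called lower, Hba-x among them (-0.78). Mural markers were called lower in 3 of 6, with sums of 285 to 334 CPM and 152 to 206 CPM and Acta2 the most abundant; Rgs5 changed by -4.32, Cspg4 by -1.44 and Mcam by -1.66, and Acta2 (-0.12) was not called. Interstitial markers were called lower in 3 of 6 and higher in 1, with sums of 1170 to 1370 CPM and 1170 to 1420 CPM; Pdgfra, the most abundant, changed by 0.33, Gli1 by -0.42 and Tcf21 by -0.30, and Nr2f2 (-0.18) was not called. Of the mesonephros markers 2 of 6 were tested and 0 called, Pax8 (-0.28), the most abundant with vehicle, and Gata3 (0.10), with sums of 15.7 to 54.0 CPM with vehicle and 20.9 to 28.3 with GPI. The vehicle testis of M1 had the highest of these mesonephros sums. Without M1 the log2 fold changes were -0.01 for Pax8 and -0.04 for Gata3. No gene of these lists was at 0 in all 10 libraries. In M1 the median ratios of endothelial (-2.93), germ cell (-2.98) and macrophage (-1.67) markers were negative and that of Leydig markers (3.85) was positive, as in the other mice. For Sertoli markers M1 had the lowest median ratio of the 5 mice (0.18, against 0.44 to 0.96), with 4 of 8 lower with GPI, against 0 to 1 in M2 to M5. Which cells carried the hypoxia targets was not tested.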

How the data were processed

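RNA of 5 vehicle and 5 GPI testes was compared in pairs, since both gonads came from 1 embryo; correlations of the deviations of paired libraries from their treatment means were 0.155, -0.04, 0.03, 0.082 and 0.073 for M1 to M5, so the pairing rests on the labels more than on the values. The values are raw counts of reads per gene that the authors deposited, made with STAR 2.5 on mm10 and featureCounts of Subread 1.5.0-p1 with RefSeq models and without strand, per the submitters' notes and the methods of the study; 0 other value columns were found. Members and lists were chosen with earlier results of these data known. Genes passed edgeR's filterByExpr (minimum count 10, minimum total 15), were scaled by TMM, and were tested by edgeR's quasi-likelihood test with mouse and treatment in the design, Benjamini-Hochberg adjusted, at an FDR of 0.05. Ratios within a mouse used a prior count of 2. The procedure was tested on simulated data: in 1 draw of counts for the tested genes (13788 passed the filter), with 200 of them changed, it called 60 of 60 changes of log2 size 2, 60 of 69 of size 1 and 32 of 71 of size 0.5, with 16 unchanged genes among its calls (9.52%, above the 5% aimed at). The draw held no differences between mice and no library set apart from its group. These rates therefore do not cover data with a library like the GPI testis of M1. Precision comes from the spread between mice, since amplified reads are not independent molecules. Depths were 10203679 to 15635322 counts.

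Genes named singly were all 34 members; of each other list, the first 2 tested, the 3 with the smallest p and, for cell types, the most abundant gene (vehicle and GPI means added). From the planned list of erythroid markers 1 gene was left out after the results were known, for a reason unrelated to its values, and that list was counted again without it. The alternatives tried were other tools (DESeq2 and limma-voom), other scaling (size factors of DESeq2, or total counts alone), fits without the replicate block, other filters (none, or 10 counts required in all 10 libraries), each mouse left out, a test against a fold change of 1.5, a prior count of 0.5 for paralog differences and a window of 200 bases before the start for promoters. Promoters came from RefSeq (GRCm38.p6), 1 per gene, the nearest to the gene's start in the table. Fits ran in R 4.3.3 (packages limma 3.58.1, DESeq2 1.42.0, edgeR 4.0.16), and tables and plots in Python 3.11.15 with matplotlib 3.10.9, pandas 2.3.3 and numpy 2.4.6, with seed 1 (2 for the simulation). Gene lengths came from the longest GENCODE M21 transcript.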

Additional observations from a re-analysis of the deposited data

Results flagged for a closer look

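Within each treatment, the highest and the lowest of the 5 libraries were compared with the nearest of the others, and a library was taken as far from its group where that gap exceeded 0.71 of the group's range (Dixon's limit). Chance gives about 1 in 20 where groups are independent, and 21 values of single genes stood out in 68 groups. The groups are 34 genes in the same 10 libraries and are not independent. The count can therefore not be set against that rate.

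The GPI testis of mouse M1 accounted for 15 of them, each time as the highest value. These were Egln1 (181 CPM), Egln3 (52.3 CPM), Bnip3 (160 CPM), Bnip3l (217 CPM), Pdk1 (125 CPM), Fam162a (100 CPM), Ak4 (51.7 CPM), P4ha1 (106 CPM), P4ha2 (111 CPM), Plod2 (409 CPM), Ero1a (429 CPM), Kdm3a (237 CPM), Bhlhe41 (62.7 CPM), Adm (73.8 CPM) and Ndrg1 (47.0 CPM). The largest gap for its range was that of Ero1a (0.965), followed by P4ha2 (0.946) and Egln3 (0.945).

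With vehicle, 6 values of single genes stood out, in the libraries of 3 mice. Mouse M2 had the highest Hif1a (352 CPM) and Adm (118 CPM) and the lowest Arnt (88.4 CPM) of its group. Mouse M1 had the highest Plod1 (59.9 CPM) and Siah2 (2.88 CPM), and mouse M3 the highest Bhlhe41 (32.9 CPM).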

How the results depend on the processing

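Of 407 fitted changes of single members under the alternatives, 361 kept their direction and their side of the threshold, 28 kept the direction and lost the call, 5 gained a call and 13 changed sign; the 13 were all in genes that were not called. Signs turned for Car9 with DESeq2 (0.00), with total counts alone (-0.04), and without M1 or M3 (-0.23 and -0.30); for P4ha2 with limma-voom (0.06); for Arnt with total counts alone (-0.02) and without M2 (-0.07); for Vhl and Stc1 without M1 (both -0.03); for Egln2 without M3 and without M4 (both -0.05); and for Higd1a without M5 (0.03). The cause was not tested.

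Without the replicate block, so that the mice were not paired, 5 targets were called lower and P4ha2 turned to 0.32; 10 members lost their call, Egln3 and 9 targets, all named in the report, and no other member's call changed. Targets called higher numbered 0 with DESeq2, where 1478 of 13941 tested genes were called higher. With no low-count filter they numbered 2, where 1590 of 20287 were. Against a fold change of 1.5, calls were 3 targets lower and 0 higher, 0 machinery genes higher, and 622 genes lower and 256 higher over the whole table. With 1 mouse left out, targets called lower ran from 10 to 15, targets called higher from 1 to 2, machinery genes called lower from 3 to 4, all genes called lower from 1287 to 1686, and all genes called higher from 969 (without M3; 1024 without M4) to 1430. The median of the targets ran from -0.71 to -0.48 and that of the machinery from -0.07 to 0.03. Single fold changes whose sign turned ran from -0.07 to 0.07 (Arnt), -0.05 to 0.14 (Egln2), -0.03 to 0.24 (Vhl), -0.32 to 0.03 (Higd1a), -0.30 to 0.45 (Car9) and -0.03 to 0.25 (Stc1). Total-count scaling moved the median of all genes to -0.03. It called 1972 genes lower (14.1%) and 1238 higher, with 14 targets called lower. The paralog differences kept their direction with a prior count of 0.5, and 19 of 26 promoters held a core in the 200 bases before the start.

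All 25 targets had a lower fitted change without M1 than with it. This follows in part from the choice of M1, whose GPI level was the highest for all 25. Car9 and Siah2 had 8 to 53 counts per library and were not called; whether depth or spread between mice set that was not tested.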
